A study of Homo sapiens with 8 samples.

Results

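This account covers 57 genes of DNA repair in BT549, an established human line of triple-negative breast cancer (a type without hormone receptors or amplified HER2), grouped by the pathway in which each is best known to act. A gene was included when its symbol was the only one on a row of the deposited table. That held for 50 of the 57, out of 18417 genes in the table chosen in the same way. ERCC5, ERCC6, BRCA2, RAD51D, RBBP8, FANCA and FANCD2 are not analysed here. The arrays compare 4 cultures of BT549 cells attached to normal tissue culture plates with 4 cultures kept in suspension on poly-HEMA, a plate coating that prevents attachment. Both groups grew in RPMI medium with 10% FBS and insulin, and the labels name no other treatment. The labels give 24 h for both groups in the sample source, but 48 h for attached and 24 h for suspended cells in the treatment text, so under the second reading the effects of time and of attachment cannot be told apart. The series calls the 4 samples of a group biological replicates of this 1 line.

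Cells carry several repair systems, each suited to a kind of damage. Nucleotide excision repair cuts out bulky lesions such as those of ultraviolet light, base excision repair removes single damaged bases, and mismatch repair corrects errors of replication. Homologous recombination copies the intact sister chromatid to mend double-strand breaks, the Fanconi anaemia pathway handles cross-links between strands at stalled forks, and non-homologous end joining rejoins broken ends directly. The kinases ATM and ATR sense breaks and stalled forks and act through CHEK2 and CHEK1. Many genes of recombination, of the Fanconi pathway and of fork repair are known to be transcribed mostly around S phase, when sister chromatids are at hand, whereas excision repair and end joining genes are mostly expressed throughout the cell cycle.

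The values are log2 signals of probe sets. Array medians ranged from 6.02 to 6.07, and arrays correlated at r = 0.995 to 0.996 among attached, 0.993 to 0.996 among suspended and 0.987 to 0.994 between groups. Of 7 markers of mesenchymal-type breast cancer, AXL (−1.04, adjusted p = 8.46e-08) and CDH2 (−0.38, adjusted p = 0.000104) were called lower in suspension and SPARC (0.37, adjusted p = 0.000102) and ZEB1 (0.27, adjusted p = 0.0024) higher, while VIM, FN1 and TWIST1 were not called. The hormone receptor genes ESR1 (5.04 attached, 5.11 suspended) and PGR (4.19 attached, 4.31 suspended) were below 5.28, the 25th percentile of gene means, which serves as a reference for low signal because no detection call was used. ERBB2 had means of 7.48 and 7.53 and was not called. The luminal factors GATA3 (8.17 attached, 8.65 suspended, adjusted p = 2.05e-05) and FOXA1 (5.61 and 5.79, adjusted p = 0.0458) were above that reference and were called higher in suspension. The part of these marker changes in the results below was not tested. Of the 4 measured leukocyte markers CD14 was called higher in suspension (0.22, adjusted p = 0.0467) and 0 were called lower. PTPRC, which marks all leukocytes, was at 3.94 in both groups. CD14 (5.50 attached, 5.72 suspended) and ITGAM (5.49 and 5.41) were above 5.28, and CD3E was below it. By limma 0 of 4 endothelial and 0 of 4 adipocyte markers were called (0 and 2, respectively, at unadjusted p under 0.05). Of these, only CDH5 (5.48 in both groups), ADIPOQ (5.68 and 5.78) and PLIN1 (5.76 and 5.90) were above 5.28. Of 6 measured epithelial markers 0 were called (0 at unadjusted p under 0.05). KRT18 (8.16 and 8.13), KRT8 (6.42 and 6.37), KRT19 (6.57 and 6.75) and EPCAM (5.47 and 5.35) were above 5.28, CDH1 and CLDN4 below it.

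Repair genes were on balance lower in suspension, by small steps apart from 1 gene. ERCC2, a helicase of nucleotide excision repair and transcription, fell 2.27-fold. Genes of homologous recombination, of the Fanconi pathway and of mismatch repair made up 12 of the 16 falls, with FANCB, EXO1, RAD51AP1, RAD54L, RAD54B and BLM lower by 1.33-fold to 1.47-fold. The damage kinase ATM and the nuclease gene ERCC4 rose, by 1.16-fold and 1.11-fold. A gene was called where limma's adjusted p over all 18417 genes was under 0.05. Of the 50 repair genes 16 (32.0%) were called lower, against a background of 10.2% of all genes, and 2 were called higher, against 10.4%. With each array centred on the median of the tested genes the counts were 23 lower and 1 higher, and over all genes 2472 lower and 1340 higher in place of 1877 and 1910. The median log2 difference, suspended minus attached, was −0.12 for the repair genes and 0.02 for all genes. The values of the groups did not overlap for 20 repair genes that were lower (12.2% of all genes) and 2 that were higher (12.7% of all genes). At limma's unadjusted p under 0.05, 24 of the 50 repair genes were lower and 2 higher, against 2745 and 3234 of all 18417 genes. Because whole cultures were measured, fewer cells expressing a gene and less of its RNA per cell cannot be told apart.

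**Figure D1:**
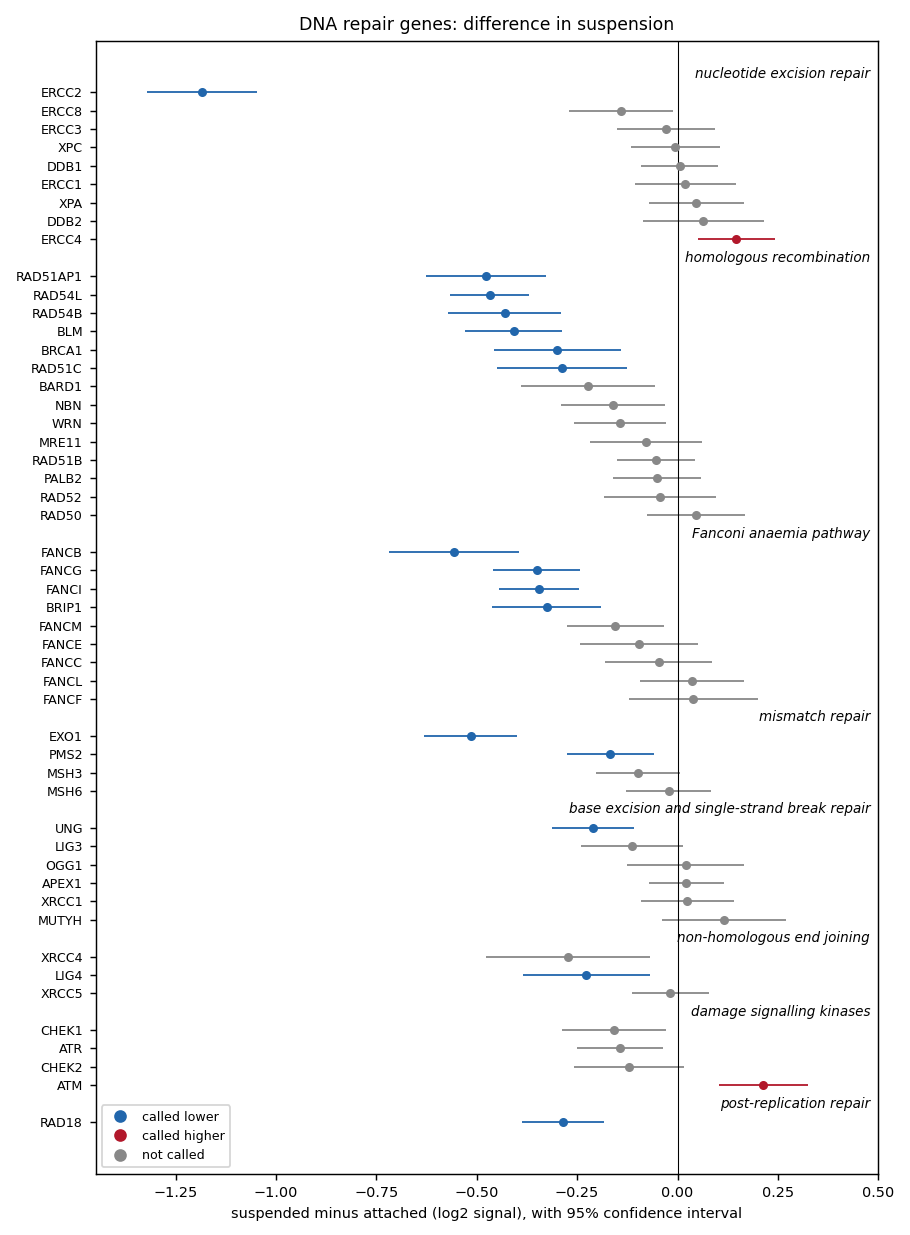
Suspended minus attached log2 signal (x axis) of each of the 50 repair genes (y axis, grouped by pathway), with the 95% confidence interval from limma as a bar. Blue points are the 16 genes called lower, red points the 2 called higher and grey points the 32 not called; ERCC2, at −1.19, lies far to the left of every other gene.

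The start regions of the genes at both ends of this range are shown to let the reader see what precedes the transcripts that moved furthest. They are the first listed promoter of the 5 largest falls and of ATM, the largest rise, each from 250 bases before to 50 after the RefSeq start, on the gene's strand in build GRCh38.p14. The capitals mark matches, on either strand, to an E2F site (TTTCCCGC, TTTGGCGC, TTTGCCGC or TTTCGCGC), to the CCAAT box (CCAAT) or to the cell cycle homology region (TTTGAA).
ERCC2, chr19:45370524-45370823, minus strand: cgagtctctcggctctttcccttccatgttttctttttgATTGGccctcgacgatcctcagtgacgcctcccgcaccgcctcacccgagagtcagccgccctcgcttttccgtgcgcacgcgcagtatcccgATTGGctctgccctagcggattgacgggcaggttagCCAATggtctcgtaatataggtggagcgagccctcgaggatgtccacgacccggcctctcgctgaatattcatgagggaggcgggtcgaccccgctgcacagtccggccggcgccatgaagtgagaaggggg
FANCB, chrX:14873020-14873319, minus strand: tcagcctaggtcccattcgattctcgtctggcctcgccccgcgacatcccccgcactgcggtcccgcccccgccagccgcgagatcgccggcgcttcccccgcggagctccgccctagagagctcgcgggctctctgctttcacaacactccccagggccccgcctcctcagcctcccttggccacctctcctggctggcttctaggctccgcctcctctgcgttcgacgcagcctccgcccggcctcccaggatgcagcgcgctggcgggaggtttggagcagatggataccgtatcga
EXO1, chr1:241847954-241848253, plus strand: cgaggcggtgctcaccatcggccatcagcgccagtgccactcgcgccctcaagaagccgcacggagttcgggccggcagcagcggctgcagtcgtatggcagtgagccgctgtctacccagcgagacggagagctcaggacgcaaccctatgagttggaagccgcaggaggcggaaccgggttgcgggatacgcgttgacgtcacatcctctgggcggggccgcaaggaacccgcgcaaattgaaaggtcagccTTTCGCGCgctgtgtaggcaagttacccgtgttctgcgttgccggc
RAD51AP1, chr12:4538640-4538939, plus strand: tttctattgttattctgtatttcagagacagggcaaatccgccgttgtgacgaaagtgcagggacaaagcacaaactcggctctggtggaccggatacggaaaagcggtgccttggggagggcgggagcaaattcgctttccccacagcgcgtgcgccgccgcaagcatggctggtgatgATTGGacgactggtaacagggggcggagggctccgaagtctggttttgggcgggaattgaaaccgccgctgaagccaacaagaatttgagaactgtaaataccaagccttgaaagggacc
RAD54L, chr1:46247438-46247737, plus strand: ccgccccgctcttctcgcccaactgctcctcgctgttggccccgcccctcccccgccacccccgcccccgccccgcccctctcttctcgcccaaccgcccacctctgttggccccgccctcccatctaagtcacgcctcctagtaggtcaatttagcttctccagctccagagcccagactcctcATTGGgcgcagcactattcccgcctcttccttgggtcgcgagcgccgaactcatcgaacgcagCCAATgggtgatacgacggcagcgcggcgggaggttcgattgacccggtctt
ATM, chr11:108222817-108223116, plus strand: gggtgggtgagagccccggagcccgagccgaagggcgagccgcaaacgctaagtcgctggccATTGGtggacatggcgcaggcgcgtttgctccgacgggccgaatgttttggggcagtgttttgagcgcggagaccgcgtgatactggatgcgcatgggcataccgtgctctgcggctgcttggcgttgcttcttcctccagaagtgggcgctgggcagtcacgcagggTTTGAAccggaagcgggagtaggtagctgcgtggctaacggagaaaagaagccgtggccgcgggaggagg

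In these windows ERCC2 held 3 CCAAT boxes, beginning at −211, −118 and −82 relative to the start. RAD54L held 2 and RAD51AP1 held 1. EXO1 held an E2F site, TTTCGCGC, beginning at base 5 of the transcript, while the other EXO1 promoter of the table, which is not printed, held 0 matches. FANCB held 0 matches, and ATM held a CCAAT box and a TTTGAA. Of the 50 genes 45 had at least 1 listed promoter, and a gene can have several. An E2F site was found in 4 of the 24 promoters of genes called lower (16.7%), in 4 of the 42 of genes not called (9.5%) and in 4.1% of the 20109 promoters of all tested genes (3.3% of all 35116 promoters). CCAAT boxes were found in 54.2%, 42.9% and 34.6% of the same sets (34.6% of all promoters), and TTTGAA in 8.3%, 11.9% and 12.3% (15.2% of all promoters). Of the 3 promoters of the genes called higher, 0 held an E2F site, 2 a CCAAT box and 1 a TTTGAA. Promoters of the same gene were counted separately, so these shares are not shares of genes. Among genes called lower (14 with a promoter) the E2F sites were in EXO1, UNG and both listed promoters of PMS2. Among genes not called (29 with a promoter) they were in FANCC, MSH3, MSH6 and XPC. No listed motif overlapped another in the windows printed. These are matches of letters, and whether any factor bound there was not measured.

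Among the nucleotide excision repair genes, ERCC2 was the 1 member called lower. ERCC2 encodes XPD, the helicase that opens DNA around a lesion as part of TFIIH, a complex that also opens promoters for RNA polymerase II. Its log2 signal was 8.92, 9.05, 9.06 and 8.97 on the attached arrays and 7.97, 7.79, 7.70 and 7.80 on the suspended arrays (probe set 8037537). Every suspended value lay well below every attached value, and the replicates spanned little of the gap. The log2 difference was −1.19 (SE 0.063, 95% confidence interval −1.32 to −1.05, adjusted p = 2.65e-07, n = 4 per group). Only 8 of the 18417 genes had a lower difference. The value lay between −1.24 and −1.15 in every refit with 1 array left out.

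Of the 9 measured excision repair genes 1 was called lower (11.1%, against 10.2% of all genes) and 1 higher (against 10.4%). The share called lower was near that of all genes. ERCC4, which encodes XPF, the catalytic subunit of the nuclease that cuts on the 5′ side of a lesion, had signals of 6.60, 6.60, 6.58 and 6.63 attached and 6.70, 6.77, 6.75 and 6.78 suspended. The groups did not overlap, and the rise was small (log2 difference 0.15, SE 0.043, adjusted p = 0.0328). That call was kept in 1 of the 8 refits with an array left out, the one without suspended replicate 1, with differences of 0.14 to 0.16. Its obligate partner ERCC1 had signals of 7.64, 7.76, 7.60 and 7.71 attached and 7.62, 7.81, 7.64 and 7.71 suspended. These overlapped throughout, and the difference was 0.02 (95% confidence interval −0.11 to 0.14, adjusted p = 0.856). The damage sensors XPC (−0.01, interval −0.12 to 0.11), DDB1 (0.00, interval −0.09 to 0.10) and DDB2 (0.06, interval −0.09 to 0.22), and XPA (0.05, interval −0.07 to 0.17), which verifies the lesion, were not called. XPC and DDB2 are known p53 targets. ERCC8, which acts in the repair of active genes, had a difference of −0.14 and was not called (adjusted p = 0.124).

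TFIIH is built of a core that holds ERCC2 and the second helicase ERCC3, and of a kinase module of CDK7, cyclin H and MNAT1. At unadjusted p under 0.05, 5 of its 9 measured subunits were lower and 0 higher. By adjusted p 4 were called lower (44.4%, against 10.2% of all genes) and 0 higher (against 10.4%). After ERCC2 these were MNAT1 (−0.32, adjusted p = 0.000995), which joins the kinase module, the cyclin CCNH (−0.28, adjusted p = 0.00175) and the core subunit GTF2H3 (−0.28, adjusted p = 0.00588). The core subunit GTF2H1 (−0.20, adjusted p = 0.0548) just missed the threshold. CDK7 (−0.07), GTF2H4 (−0.03), GTF2H5 (−0.03) and ERCC3 (−0.03, 95% confidence interval −0.15 to 0.09) were not called. The largest difference among the other subunits was −0.32. The 95% confidence intervals of ERCC2 (−1.32 to −1.05) and MNAT1 (−0.43 to −0.21) did not meet.

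The genes next to ERCC2 in the RefSeq gene table, among those tested, were KLC3 on one side and PPP1R13L on the other. KLC3, a kinesin light chain, had a difference of 0.05 (adjusted p = 0.681). CKM, the next tested gene beyond KLC3, was not called either (0.11, adjusted p = 0.387). The means of CKM, 5.03 attached and 5.14 suspended, were below 5.28. PPP1R13L, which encodes the p53 inhibitor iASPP, fell (−0.30, adjusted p = 0.0120), as did POLR1G, an RNA polymerase I subunit gene that comes after it (−0.42, adjusted p = 0.000861). ERCC1 lies beyond these in the same cluster and, as given above, was not called.

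**Figure D2:**
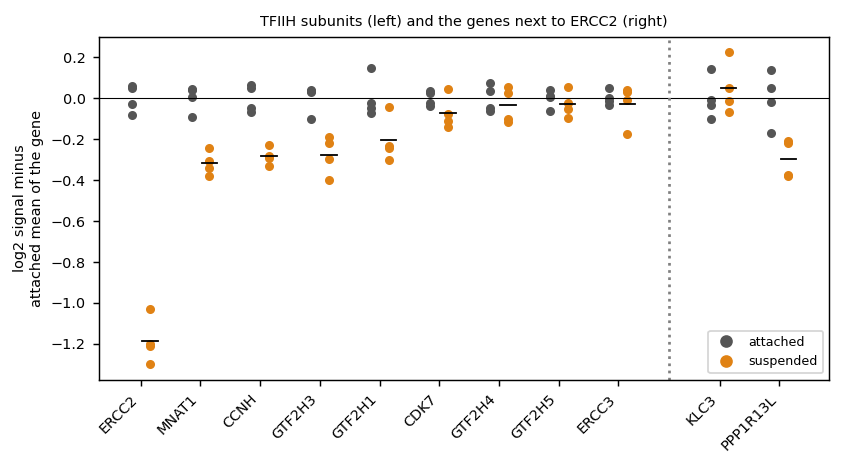
Log2 signal minus the attached mean of the gene (y axis) for 9 TFIIH subunits and, right of the dotted line, the tested genes on each side of ERCC2; 1 point per array, grey attached and orange suspended, with the suspended mean as a line. The 4 suspended points of ERCC2 lie around their mean of −1.19, below every point of the other subunits.

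In homologous recombination, the longest of the lists, 6 of 14 measured genes (42.9%) were called lower, against 10.2% of all genes, and 0 higher. At unadjusted p under 0.05 the counts were 9 and 0, and the median difference was −0.19. RAD51AP1, which stimulates strand invasion, had signals of 7.26, 7.33, 7.34 and 7.29 attached and 6.65, 6.98, 6.90 and 6.78 suspended (difference −0.48, SE 0.068, adjusted p = 0.000428). RAD54L, a motor that helps the filament invade the sister DNA, had 7.25, 7.30, 7.25 and 7.26 attached and 6.73, 6.83, 6.82 and 6.81 suspended (−0.47, SE 0.045, adjusted p = 2.38e-05). In both genes the groups were separate, and RAD54L was the tighter of the pair, with SDs of 0.025 attached and 0.047 suspended. Its relative RAD54B had 8.19, 8.10, 8.10 and 8.18 attached and 7.71, 7.85, 7.75 and 7.54 suspended (−0.43, SE 0.064, adjusted p = 0.000595).

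BLM, the Bloom syndrome helicase, which dissolves joined recombination intermediates, fell in the same range. Its signals were 7.62, 7.65, 7.59 and 7.57 attached and 7.33, 7.17, 7.11 and 7.19 suspended (−0.41, SE 0.055, adjusted p = 0.000296), with no overlap. WRN, the Werner syndrome helicase of the same RecQ family, had a difference of −0.14 and was not called (adjusted p = 0.0808), although its groups did not overlap either.

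BRCA1, which steers broken ends into recombination, had signals of 7.63, 7.53, 7.55 and 7.43 attached and 7.22, 7.33, 7.35 and 7.04 suspended. The lowest attached value stayed above the highest suspended value by less than the spread within either group (difference −0.30, SE 0.072, adjusted p = 0.0122). Its ubiquitin ligase partner BARD1 had a difference of −0.22 (adjusted p = 0.0594), with suspended values from 6.25 to 6.64 against 6.68 to 6.78 attached. PALB2, which links BRCA1 to the recombinase loader, was not called (−0.05, 95% confidence interval −0.16 to 0.06). Whether the differences of these partners differ from each other was not tested.

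RAD51C, a paralogue of the recombinase that helps load it, had signals of 7.20, 7.51, 7.39 and 7.29 attached and 6.96, 7.03, 7.20 and 7.04 suspended. It was called lower (−0.29, SE 0.073, adjusted p = 0.0162) although the lowest attached and the highest suspended values, both 7.20, overlapped slightly, and without suspended replicate 1 the call was lost (adjusted p = 0.0507). Its relative RAD51B had a difference of −0.05 (95% confidence interval −0.15 to 0.04). RAD52, which anneals single strands, had −0.04 (interval −0.18 to 0.10).

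The complex of MRE11, RAD50 and NBN, which grips broken ends and starts their resection, had 0 of 3 genes called by limma, and 1 (NBN) at unadjusted p under 0.05. RAD50 had signals of 7.52, 7.69, 7.67 and 7.75 attached and 7.73, 7.66, 7.68 and 7.73 suspended, which overlapped (difference 0.05, interval −0.08 to 0.17, adjusted p = 0.609). NBN had −0.16 (adjusted p = 0.0797) and MRE11 −0.08 (adjusted p = 0.430).

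**Figure D3:**
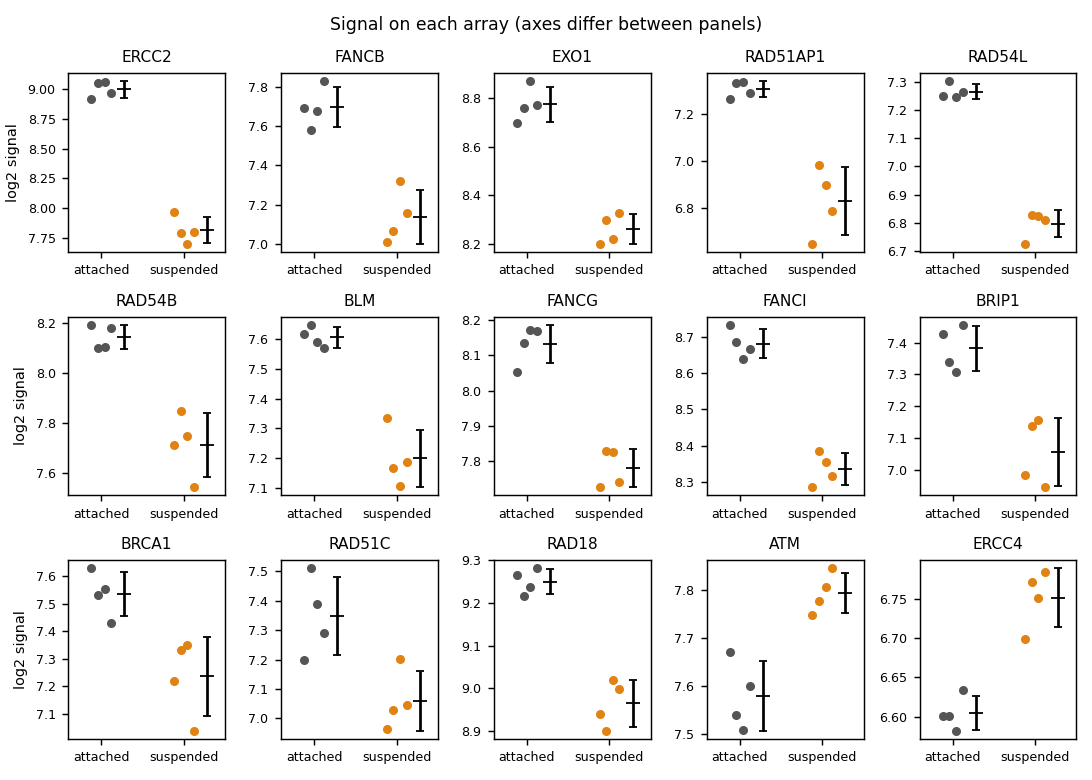
Log2 signal on each array (y axis, which differs between panels) for the 13 genes called with an absolute difference of at least 0.25 and for ATM and ERCC4; grey points are the 4 attached arrays, orange points the 4 suspended arrays, and the black bars the mean ± SD of each group. The groups are separate in every panel except that of RAD51C, where the groups overlap at 7.20.

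In the Fanconi anaemia pathway 4 of 9 measured genes (44.4%) were called lower, against 10.2% of all genes, and 0 higher. At unadjusted p under 0.05 the counts were 5 and 0. The core complex, which places ubiquitin on its clamp proteins at a cross-link, was uneven. FANCB, a scaffold of the core and an X-linked gene, had signals of 7.69, 7.58, 7.68 and 7.83 attached and 7.01, 7.07, 7.32 and 7.16 suspended. After ERCC2 it had the largest fall of the repair genes (difference −0.56, SE 0.074, adjusted p = 0.000263). FANCG, another core subunit, had 8.05, 8.13, 8.17 and 8.17 attached and 7.73, 7.83, 7.83 and 7.74 suspended (−0.35, SE 0.049, adjusted p = 0.000382). The remaining core genes were not called: FANCM (−0.15, adjusted p = 0.0730), a motor that anchors the core to DNA, FANCE (−0.10), FANCC (−0.05), the ubiquitin ligase FANCL (0.04) and FANCF (0.04). FANCF was the 1 repair gene whose mean signal lay below 5.28, so its difference carries less information.

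Downstream of the core, FANCI, a subunit of the clamp that receives the ubiquitin, had 8.73, 8.69, 8.64 and 8.67 attached and 8.29, 8.39, 8.36 and 8.32 suspended (−0.35, SE 0.046, adjusted p = 0.000262). BRIP1, a helicase that binds BRCA1 and is also known as FANCJ, had 7.43, 7.34, 7.31 and 7.46 attached and 6.98, 7.14, 7.16 and 6.95 suspended (−0.33, SE 0.062, adjusted p = 0.00287). In both genes every suspended array was below every attached array. UBE2T, the enzyme that supplies the ubiquitin, was also lower (−0.35, adjusted p = 0.00149), as was USP1, the enzyme that removes it (−0.15, adjusted p = 0.0499). WDR48, which activates USP1, was higher (0.33, adjusted p = 0.000355).

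In mismatch repair 2 of 4 genes were called lower and 0 higher, with the same counts at unadjusted p under 0.05. EXO1, the exonuclease that digests the strand carrying the error and also resects double-strand breaks, had signals of 8.70, 8.76, 8.87 and 8.77 attached and 8.20, 8.30, 8.22 and 8.33 suspended (difference −0.51, SE 0.053, adjusted p = 4.11e-05). Its groups were separated by more than the range of either. PMS2, which nicks the strand to be corrected, was lower by far less (−0.17, adjusted p = 0.0324), a call kept in 1 of 8 refits with an array left out (the one without suspended replicate 3). The mismatch sensors MSH6 (−0.02, 95% confidence interval −0.13 to 0.08) and MSH3 (−0.10, interval −0.20 to 0.01) were not called.

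Of 6 genes of base excision repair 1 was called lower (16.7%, against 10.2% of all genes) and 0 higher. At unadjusted p under 0.05 also 0 were higher. The gene called lower was UNG, the glycosylase that removes uracil from DNA (−0.21, SE 0.046, adjusted p = 0.00754). Its signals were 7.52 to 7.56 suspended against 7.69 to 7.81 attached. The other glycosylases, OGG1 (0.02) and MUTYH (0.12), the endonuclease APEX1 (0.02), the scaffold XRCC1 (0.02) and the ligase LIG3 (−0.11) were not called. The 95% confidence interval of APEX1 ran from −0.07 to 0.12 and that of XRCC1 from −0.09 to 0.14. MUTYH had nearly equal signals on the attached arrays (SD 0.005) and spread from 5.96 to 6.31 in suspension.

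Among 3 genes of non-homologous end joining 1 was called lower (33.3%, against 10.2% of all genes) and 0 higher. LIG4, which seals the ends, was called lower (−0.23, adjusted p = 0.0450) although its groups overlapped. When arrays were left out in turn the call of LIG4 was kept only without suspended replicate 2. Its partner XRCC4 had a larger difference with a wider spread (−0.27, SE 0.093, adjusted p = 0.0603). On suspended replicates 1 and 4 XRCC4 lay at 6.55 and 6.59, while on replicates 2 and 3 it lay at 6.94 and 6.96, close to the attached values of 6.97 to 7.13. XRCC5, which encodes the KU80 part of the ring that caps broken ends, had signals of 9.92, 9.92, 9.95 and 9.88 attached and 9.92, 9.91, 9.91 and 9.85 suspended. The difference of XRCC5 was −0.02, with a 95% confidence interval of −0.11 to 0.08, whose lower bound did not reach the differences of EXO1 or FANCB.

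Of the 4 damage kinases ATM was called higher (against 10.4% of all genes) and 0 were called lower (against 10.2%). At unadjusted p under 0.05, 2 were lower. ATM, which responds to double-strand breaks, had signals of 7.67, 7.54, 7.51 and 7.60 attached and 7.75, 7.78, 7.81 and 7.84 suspended. All 4 suspended values were above all 4 attached values, and ATM rose by 0.21 (SE 0.051, adjusted p = 0.0108), or 1.16-fold. It stayed called in all 8 refits with 1 array left out (0.19 to 0.24). ATR, which responds to stalled forks, had 7.67, 7.57, 7.61 and 7.56 attached and 7.39, 7.46, 7.53 and 7.45 suspended. ATR was lower without overlap but was not called (−0.14, adjusted p = 0.0585). CHEK1, its target kinase (−0.16, adjusted p = 0.0828), and CHEK2, the target of ATM (−0.12, adjusted p = 0.208), were not called. RAD18, the ubiquitin ligase that recruits polymerases able to copy past lesions, had 9.27, 9.22, 9.24 and 9.28 attached and 8.94, 8.90, 9.02 and 9.00 suspended (−0.29, SE 0.046, adjusted p = 0.00105).

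Array by array, the average shift was shared by all 4 suspended cultures in recombination, Fanconi and mismatch genes and not in base excision genes. For each array the log2 signal minus the attached mean of the gene was averaged over a pathway. The 14 recombination genes gave −0.01 to 0.03 on attached and −0.27 to −0.18 on suspended arrays. The 9 Fanconi genes gave −0.06 to 0.03 and −0.25 to −0.16, and the 4 mismatch genes −0.05 to 0.04 and −0.22 to −0.17. The mismatch average leans on EXO1 (difference −0.51), since PMS2 (−0.17), MSH3 (−0.10) and MSH6 (−0.02) moved far less. The 6 base excision genes gave −0.03 to 0.02 and −0.07 to 0.03, so the groups overlapped. For the 9 excision repair genes the suspended range was −0.17 to −0.07, but without ERCC2 the other 8 gave −0.04 to 0.07 against −0.02 to 0.03 attached. The 3 end joining genes were the least even, at −0.25 and −0.30 on suspended replicates 1 and 4 and −0.04 and −0.10 on replicates 2 and 3. Replicates 1 and 4 were also the lower ones for recombination genes (−0.25 and −0.27, against −0.18 on replicates 2 and 3). The same held for all 50 repair genes (−0.18 and −0.19, against −0.13 and −0.14). It did not hold for nucleotide excision, mismatch or base excision genes.

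**Figure D4:**
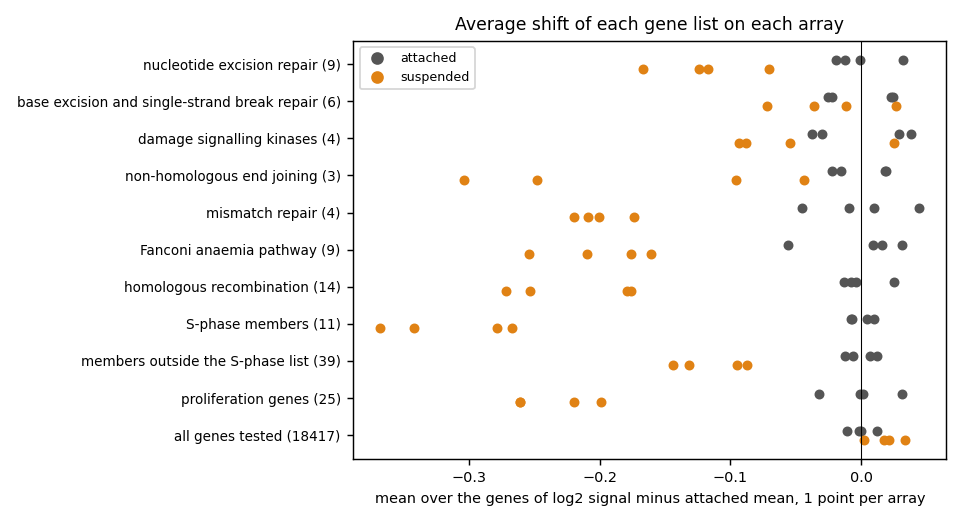
Mean over the genes of a list of log2 signal minus the gene's attached mean (x axis), 1 point per array, grey attached and orange suspended, with the number of genes in brackets. The orange points of homologous recombination lie between −0.27 and −0.18, apart from the grey ones, while those of base excision repair overlap with them.

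The repair genes known for S-phase expression, a list chosen with earlier results of these data known, were set beside the rest. Of the 11 measured members of this list of 15, 8 were called lower (72.7%) and 0 higher (10 and 0 at unadjusted p under 0.05), with a median difference of −0.33. Their differences ran from −0.51 (EXO1) to −0.02 (MSH6). The median of the other 39 repair genes was −0.05. Of these 8 were called lower (20.5%, against 10.2% of all genes) and 2 higher (against 10.4%). The former were ERCC2, FANCB, RAD54B, FANCG, RAD51C, RAD18, LIG4 and PMS2. Of general proliferation genes, 19 of 25 (76.0%) were called lower and 0 higher (20 and 0 at unadjusted p under 0.05), with a median of −0.22. Those not called were MCM2 (−0.05), MCM3 (−0.01), MCM5 (−0.16), MCM6 (0.00), CCNE1 (−0.01) and E2F2 (−0.11). The average shift of the 25 on suspended arrays was −0.26 to −0.20, against −0.37 to −0.27 for the S-phase repair genes. The part of proliferation in the falls of the repair genes was not tested.

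**Figure D5:**
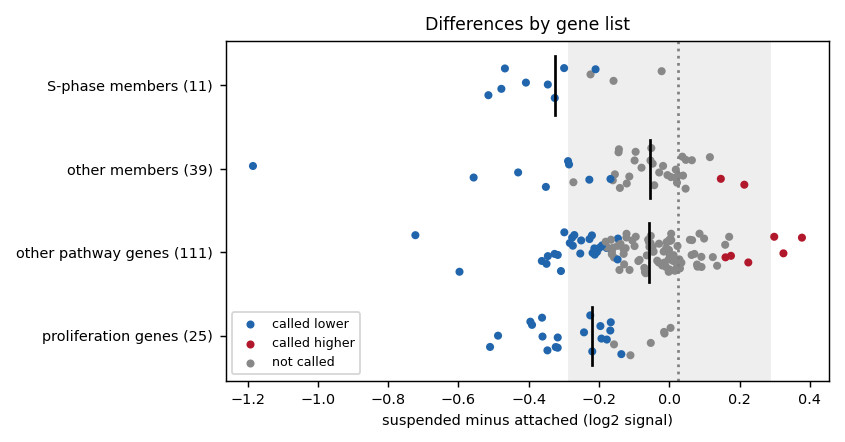
Suspended minus attached log2 signal (x axis) of each gene in 4 lists (y axis, number of genes in brackets), coloured as called lower, called higher or not called, with the list median as a black line. The grey band holds the middle of all tested genes, from the 5th percentile (−0.29) to the 95th (0.29), and the dotted line is their median, 0.02.

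Further genes of the same pathways came from lists of 119 genes, of which 111 were measured. Of these 26 were called lower (23.4%, against 10.2% of all genes) and 6 higher (against 10.4% of all genes). The median difference of the 111 was −0.06. The largest fall was that of CLSPN, which encodes Claspin, the adaptor through which ATR activates CHEK1 (−0.72, adjusted p = 8.34e-05). It was followed by XRCC2, another recombinase paralogue (−0.60, adjusted p = 1.06e-05), POLQ, a polymerase that joins resected ends and is counted here with recombination (−0.36, adjusted p = 0.000274), and RFC3, a subunit of the clamp loader (−0.35, adjusted p = 0.000357). By pathway, calls lower and higher were 5 and 0 of 18 in nucleotide excision repair, 4 and 0 of 21 in recombination, 3 and 1 of 8 in the Fanconi pathway and 5 and 0 of 9 in mismatch repair. For the first, second and last of these, 1, 1 and 0 genes were higher at unadjusted p under 0.05. Calls lower and higher were 2 and 1 of 19 in base excision repair and 1 and 2 of 11 in end joining. They were 5 and 1 of 14 in damage signalling and 1 and 1 of 11 in post-replication repair. The shares called lower in base excision repair (10.5%), end joining (9.1%) and post-replication repair (9.1%) were near that of all genes.

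The 6 of these genes that rose were WEE1, a kinase that holds back mitosis (0.38, adjusted p = 0.000408), WDR48, POLI, a lesion-bypass polymerase (0.30, adjusted p = 0.000655), NEIL1, a glycosylase for oxidised bases (0.22, adjusted p = 0.0300), TP53BP1, which favours end joining over resection (0.18, adjusted p = 0.0221), and POLM, an end-joining polymerase (0.16, adjusted p = 0.0377). POLH, another bypass polymerase, fell (−0.33, adjusted p = 0.000282).

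The median SD of the repair genes was 0.060 attached and 0.083 suspended, and the SD was larger in suspension for 34 of 50 genes (68.0%), a share near the 60.2% of all genes, whose median SDs were 0.073 and 0.086. Of the 18 called genes 14 were called in all 8 refits that left out 1 array, and 15 under all 9 other settings tried. ERCC4, PMS2 and LIG4 were lost in both kinds of check, and RAD51C only without suspended replicate 1. Conversely, 7 genes not called here were called lower in at least 1 refit or setting: BARD1, NBN, WRN, FANCM, XRCC4, ATR and CHEK1. BARD1 was called in 6 of the 9 other settings, and XRCC4 and ATR in 5. In addition, 8 genes that were not called had unadjusted p under 0.05, and all 8 were lower in suspension. Over all 18417 genes, called ones included, 2745 were lower and 3234 higher at that level.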

How the data were processed

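Total RNA from 8 BT549 cultures was hybridised to gene-level arrays. The authors deposited 1 log2 signal per probe set and array (33297 probe sets); the log2 scale was inferred from array maxima of 13.69 to 13.74. The submitters' processing notes name Partek. Its version and settings were not given in the sources used here. The labels name a labelling kit used for small RNA, so how these arrays were labelled is uncertain. Of the probe sets 19460 carried 1 gene symbol in the platform annotation. For 769 genes with several, none of them a repair gene, the brightest was used, leaving 18417. Groups were compared by limma 3.58.1 (R 4.3.3; two-sided, without covariates, Benjamini-Hochberg adjusted over all genes, threshold 0.05), after testing on simulated data. Fold values are ratios of signals, and the number of arrays limits the precision. Signals on every array are printed for genes called at an absolute difference of at least 0.25 and for ERCC1, ERCC4, BRCA1, XRCC5, ATM, ATR and RAD50. Alternatives covered scaling, filters on low signal, probe set choice, array weights, variance model, replicate block and each array left out. The repair genes and lists were chosen with earlier results of these data known. Promoters are from RefSeq, GRCh38.p14.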

Additional observations from a re-analysis of the deposited data

Results flagged for a closer look

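Within each group of 4 arrays, 1 array stood apart from the other 3 for 4 of the 100 groups examined (50 genes in each of 2 conditions), where the gap to its nearest neighbour took up most of the range. Chance gives about 1 in 20 groups. XPA on attached replicate 2 was 7.10 against 7.23 to 7.25 on the others (0.891 of the range). XPC on suspended replicate 2 was 7.03 against 6.88 to 6.89 (0.927). DDB1 on attached replicate 1 was 9.51 against 9.55 on the others (0.928). CHEK1 on attached replicate 2 was 8.35 against 8.45 to 8.47 (0.888), and this array is the one that brought the attached values of CHEK1 down to the suspended ones, which ran from 8.16 to 8.39.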

How the results depend on the processing

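The count of repair genes called lower was 16 and ranged from 14 to 23 over the other settings and from 13 to 18 with 1 array left out. The count called higher was 2, and 1 (ATM) after either centring of the arrays, quantile normalization, the replicate block or the intensity trend; it ranged from 1 to 2 with 1 array left out. ERCC4 was the call lost (adjusted p = 0.105 with arrays centred on their median and 0.179 with arrays centred on the median of tested genes). With the replicate number as a block 14 genes were lower and 1 higher: PMS2 and LIG4 were lost (adjusted p = 0.0633 and 0.0653). Deviations of same-numbered arrays correlated at −0.20 to 0.04, and those of arrays with unlike numbers at −0.20 to 0.26. These values showed no sign of pairing, but so few pairs cannot settle whether the numbers pair the cultures. Centring on the median of tested genes, chosen after seeing the data, gave 23 lower and turned the split of all calls from 50.4% higher to 35.2% (1340 higher, 2472 lower). The sign of no called gene changed under any setting, whereas differences near 0, such as those of ERCC1, ERCC3, DDB1, XPC, APEX1 and XRCC1, changed sign with the scaling or the array left out. No background measure limits what low signals show.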
